A study of Danio rerio with 8 samples.

Results

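Annexins, calpains, S100 proteins and calmodulins are protein families that respond to calcium. In the cornea of adult zebrafish, set against the epidermis of the body surface, 41 of their genes were measured. The members were every gene on the array whose symbol begins with anxa, capn or s100, the calmodulin genes calm2a, calm2b, calm3a and calm3b, and ictacalcin (icn). They comprised 16 annexins, 9 calpains, 12 S100 genes (icn included) and 4 calmodulins, of 14462 named genes in all, and they were taken by symbol, without a threshold on any value.

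Annexins bind acidic phospholipids when calcium rises, and are known for linking membranes to each other and to the cortical cytoskeleton, for membrane repair and for damping inflammation. Calpains are cysteine proteases that calcium switches on. The classical ones pair a catalytic subunit with a small regulatory subunit, are held back by calpastatin, and cut cytoskeletal and adhesion proteins rather than degrading them fully. S100 proteins and calmodulin are small EF-hand proteins that change shape on binding calcium and then grip partner proteins, among them annexins for some S100 proteins and many kinases, phosphatases and channels for calmodulin. The corneal epithelium is continuous with the skin around the eye, so the comparison sets a transparent stratified epithelium with its stroma against a scaled surface.

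Both tissues came from adult wild-type zebrafish of the AB2O2 strain. For each biological repeat, corneas dissected from 30 globes were pooled as the cornea sample, and the epidermis sample was prepared from scales, which carry the epidermis on their outer face, so cells of the scale could be in it. Total RNA was amplified, and each of 4 repeats was hybridised to 2 two-colour arrays with the dyes swapped, repeats 1 and 2 on one slide and repeats 3 and 4 on the other. The labels do not say whether both tissues of a repeat came from the same fish.

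The deposited values are log2 ratios of the 2 tissues on each array, already normalized, without the intensities of either channel. A ratio of 1 is a 2-fold difference. The sign is taken as cornea over epidermis, which is likely and not stated: the labels name cornea before epidermis, and the genes that the study lists as cornea genes lie above 0. A ratio cannot show whether a gene is strong or weak in either tissue, or near background, so no level is given below. The 2 arrays of a repeat were averaged, and limma tested whether the mean over the 4 repeats differed from 0, with Benjamini-Hochberg adjustment over all 14462 genes. A gene was called at an adjusted p under 0.05. Every gene name rests on an inferred order of the array features, described with the processing below.

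Markers of the 2 tissues were unequal in both directions. Over all genes 22.9% were called higher in cornea and 13.8% lower, the shares to set beside each count here. Of 6 surface epithelium markers, 5 were called higher in cornea and 1 (cdh1, E-cadherin) lower. Of 4 corneal stroma markers, kera, dcn and tgfbi were called higher and lum lower. Enamelin (enam), an enamel matrix gene, was the lowest of the 6 scale bone markers at -5.35 ± 0.25 (SD, n = 4). Of that list 3 were called lower, 1 (ctsk, at 2.69 ± 0.43) higher and 2 were not called. agr2, the mucous cell marker, stood at -3.12 ± 0.61 (SD, n = 4). Markers of tissue next to the cornea or under the skin were read as well. Skeletal muscle had 5 of 9 genes called higher and 1 lower, with a list median of 0.68. Photoreceptors had 2 of 5 genes called higher and 0 lower, with a list median of 0.48. Of 4 leukocyte genes 2 were called lower and 1 higher, of 4 vessel endothelium genes 3 were called lower, and of 7 lens genes 1 was called lower. Retinal glia and neurons had 2 of 4 called higher, pigment cells 1 of 4, ionocytes 1 of 5 each way, and red blood cells 1 of 2 lower. Their part in the results below was not tested. In RNA from whole tissue, fewer cells of a type and less RNA per cell cannot be told apart.

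Across the 4 families 19 of 41 members were called higher in cornea, 46.3% of them, beside 22.9% of all genes. Another 6 were called lower, 14.6%, beside 13.8% of all genes, and 16 were not called. In either direction the background was 36.7%. Of all 41 members, 13 were called higher and lay over 2-fold, as did 10.3% of all genes. Called lower and over 2-fold were 3 of the 41, and 4.87% of all genes. The median log2 ratio of the members was 0.39, beside 0.03 over all genes. The families differed in direction: annexins and calpains were called mostly higher, no S100 gene was called higher, and all 4 calmodulins were called, 3 higher and 1 lower.

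**Figure D1:**
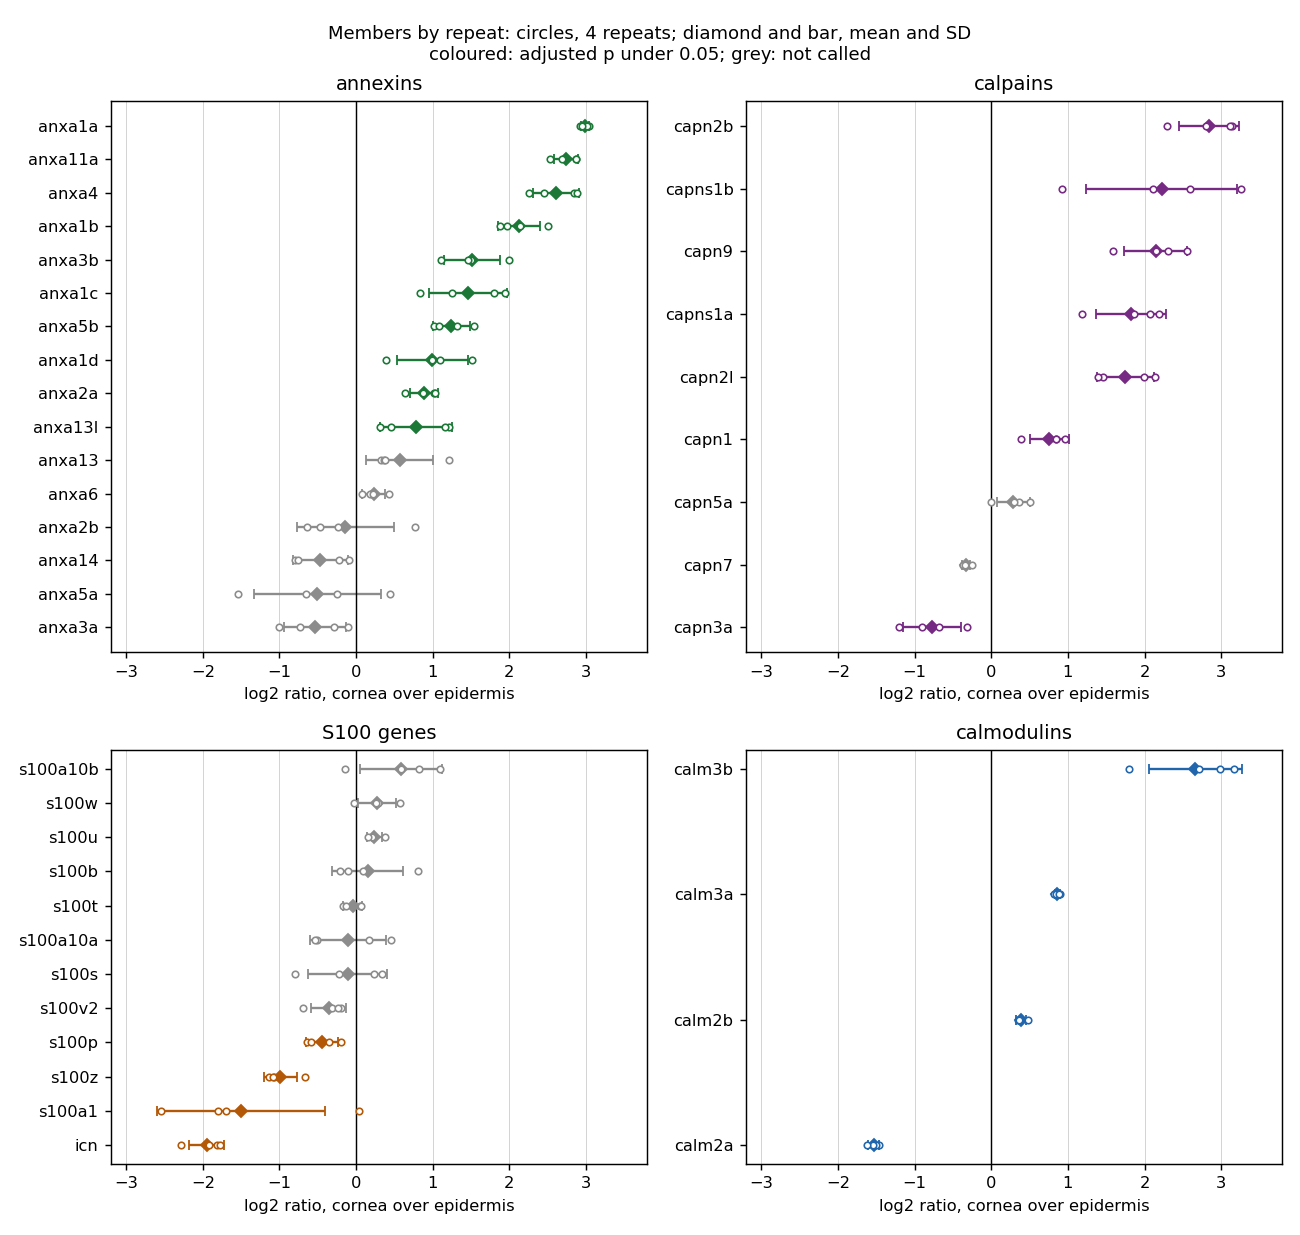
Log2 ratio of cornea over epidermis (x axis) for each of the 41 members (rows), by family. Open circles are the 4 repeats, diamonds and bars the mean and SD, and grey marks members not called. The 4 circles of anxa1a lie between 2.93 and 3.04, while those of s100a1 spread between -2.55 and 0.04.

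**Figure D2:**
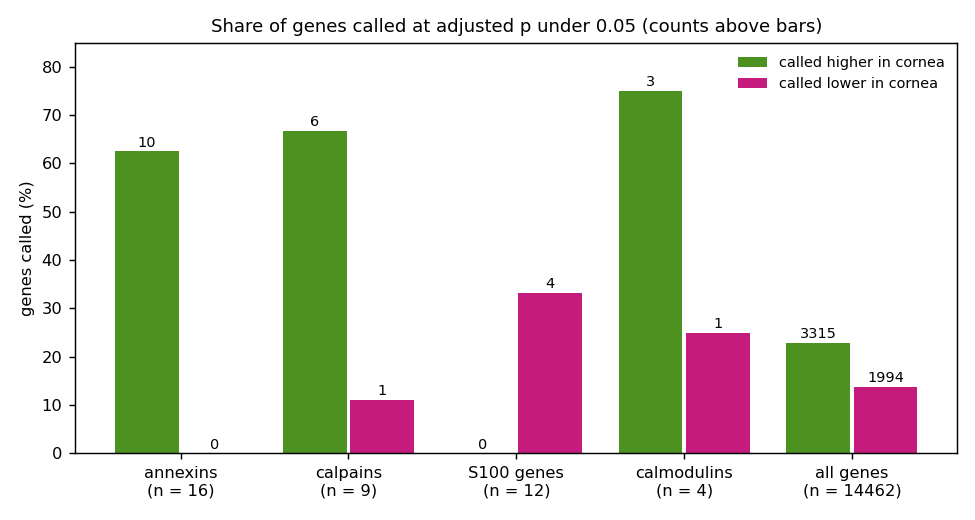
Share of genes called higher and lower in cornea (y axis, percent of genes) in each family and over all 14462 genes, with the counts above the bars. The annexins have 10 genes called higher and 0 lower, and the S100 genes 0 higher and 4 lower.

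Annexins were the largest family and leaned to the cornea. Of 16, 10 were called higher, 62.5%, beside 22.9% of all genes, and 0 lower, beside 13.8%. Of the 10, 7 lay over 2-fold. Adjusted p-values of the 10 (limma) ran between 4.14e-05 and 0.0216, and the family's median log2 ratio was 0.94. At an unadjusted p under 0.05 (limma), 11 annexins lay above 0 and 2 below.

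The annexin 1 genes are copies of the gene for annexin A1, a mediator of glucocorticoid action and a substrate of the EGF receptor in mammals. anxa1a had log2 ratios of 3.04, 2.93, 3.01 and 2.95 in repeats 1 to 4, a mean of 2.98 ± 0.05 (SD, n = 4) and a fold of 7.90, the highest mean of all members. anxa1b had 1.88, 2.14, 2.50 and 1.97, a mean of 2.12 ± 0.27. Every repeat of anxa1a stood above every repeat of anxa1b. The SD of anxa1a is that of a mean over 2 probes, whose own SDs were larger, 0.19 and 0.22. anxa1c had 0.84, 1.25, 1.80 and 1.94, a mean of 1.46 ± 0.51, with both repeats of the second slide above both of the first. anxa1d stood at 1.00 ± 0.46, just under 2-fold, with an adjusted p of 0.00844 (limma). In the RefSeq gene order anxa1d, anxa1c and anxa1b follow each other with 0 protein-coding genes between neighbours, and all 3 of these neighbours were called higher.

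Annexins A11, A4 and A3 followed. anxa11a, whose mammalian protein tethers RNA granules to lysosomes, had 2.54, 2.68, 2.87 and 2.87, a mean of 2.74 ± 0.16 and a fold of 6.68. anxa4, an annexin of epithelial membranes, had 2.26, 2.84, 2.88 and 2.45, a mean of 2.61 ± 0.30. anxa3b had 1.49, 1.11, 1.46 and 1.99, a mean of 1.52 ± 0.36. No repeat of these genes lay below 1.11. anxa5b, a copy of the gene for annexin A5, the phosphatidylserine binder used to stain dying cells, had 1.01, 1.32, 1.08 and 1.54, a mean of 1.24 ± 0.24 and an adjusted p of 0.00094 (limma). The study chose anxa1a, anxa1b, anxa4 and anxa11a for its own cornea list partly on these arrays, so their direction here is not independent of that choice.

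Smaller differences were called for anxa2a at 0.89 ± 0.18 and anxa13l at 0.79 ± 0.47 (SD, n = 4 each). Annexin A2 is known in mammals for its complex with S100A10, and annexin A13 for intestinal epithelium. The 4 repeats of anxa13l fell in pairs, 1.21 and 1.16 in repeats 2 and 4 and 0.46 and 0.31 in repeats 1 and 3. Its call was lost without repeat 2, at 0.64 with an adjusted p of 0.0715, and without repeat 4, at 0.66 with an adjusted p of 0.0874 (limma).

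Another 6 annexins were not called, with adjusted p-values (limma) between 0.0552 and 0.688. They were anxa13 at 0.57 ± 0.43, anxa6 at 0.23 ± 0.15, anxa2b at -0.14 ± 0.63, anxa14 at -0.47 ± 0.36, anxa5a at -0.50 ± 0.83 and anxa3a at -0.54 ± 0.41 (SD, n = 4 each). The repeats of anxa5a ranged between -1.54 and 0.44 and those of anxa2b between -0.64 and 0.77, so these means say little about a direction. All 4 repeats of anxa3a and of anxa14 lay below 0, without passing the test.

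Most calpains were called higher in cornea, both copies of their small subunit included. Of 9 genes, 6 were called higher, 66.7%, beside 22.9% of all genes, and 1 lower, 11.1%, beside 13.8%. Of the 6, 5 lay over 2-fold. The median log2 ratio was 1.75, the highest of the 4 families. Adjusted p-values of the 6 (limma) ran between 0.000134 and 0.00723.

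Among the catalytic subunits, capn2b, a copy of the gene for the classical calpain 2, had 2.30, 2.80, 3.14 and 3.11, a mean of 2.84 ± 0.39 (SD, n = 4) and a fold of 7.14. capn9, known in mammals from the digestive tract, had 1.58, 2.15, 2.55 and 2.31, a mean of 2.15 ± 0.41. capn2l had 1.99, 1.46, 1.40 and 2.14, a mean of 1.75 ± 0.37. Repeat 1 was the lowest for capn2b and capn9 but not for capn2l, which lies near capn2b in the RefSeq gene order with 1 protein-coding gene between them. capn1, the gene for the other classical calpain, was called at 0.76 ± 0.26, less than 2-fold. Its probes stood at 1.27, called, and 0.24, not called, and the call was lost with the second probe alone and on slide 1 alone, at adjusted p-values (limma) of 0.16 and 0.192.

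The small subunit is the shared partner of the classical calpains. capns1a had 1.86, 1.18, 2.19 and 2.07, a mean of 1.82 ± 0.45. capns1b had 2.59, 0.93, 2.11 and 3.26, a mean of 2.22 ± 0.98, with an adjusted p of 0.00375 (limma). Repeat 2 was the lowest of the 4 for both copies. The spread of capns1b was well above the median SD of members, 0.36, and that of all genes, 0.31. The study names anxa1b, anxa4, capn2b and capns1a in its text, and these 4 are described here with that known. It counts capn2b and capns1a among its cornea genes, chosen partly on these arrays. Their direction here is not independent of that choice. By quantitative PCR the study also found anxa1b, anxa4 and capns1a higher in cornea, against dermis and not epidermis. By in situ hybridisation at younger stages it placed capn2b in the corneal epithelium.

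The remaining calpains did not follow. capn3a, a copy of the gene for the calpain of skeletal muscle in mammals, was called lower at -0.78 ± 0.37, with an adjusted p of 0.0135 (limma) and repeats of -1.20, -0.31, -0.90 and -0.69. Without repeat 3 its adjusted p was 0.0564 (limma), at -0.73. Of the 9 skeletal muscle markers 5 were called higher, led by atp2a1, the muscle calcium pump, at 3.04 ± 0.64, and 1 lower, pvalb2, a muscle parvalbumin gene, at -0.68 ± 0.43. Their part in this ratio was not tested. capn5a at 0.29 ± 0.21 and capn7 at -0.33 ± 0.06, both of the kinds that do not use the small subunit, were not called. The adjusted p of capn7 was 0.065 (limma), and its 4 repeats lay between -0.37 and -0.25.

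Of the 12 S100 genes, 0 were called higher in cornea by limma, beside 22.9% of all genes. Another 4 were called lower, 33.3%, beside 13.8% of all genes, and 8 were not called. At an unadjusted p under 0.05 (limma), 1 lay above 0 and 5 below. The family's median log2 ratio was -0.11, and it was 0.04 with cornea in Cy5 only and -0.32 with cornea in Cy3 only. icn, the gene for ictacalcin, an S100 protein of fish, had -1.82, -2.29, -1.78 and -1.92 in the 4 repeats, a mean of -1.95 ± 0.23 (SD, n = 4), 3.87-fold lower in cornea and the lowest mean of all members, with an adjusted p of 0.000209 (limma). s100z stood at -0.99 ± 0.22, just under 2-fold, and its 2 probes gave -0.98 and -0.99.

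s100a1, known in mammals from heart and muscle, where it acts on calcium release and uptake, had -1.70, -1.80, -2.55 and 0.04. Repeat 4 lay near 0 while the other 3 repeats were each over 3-fold lower in cornea. Both of its probes gave this split, with repeat 4 at 0.11 on one and -0.02 on the other. The mean was -1.50 ± 1.098, the largest SD of all members, and the adjusted p was 0.0257 (limma). Without repeat 1, 2 or 3 the call was lost, at adjusted p-values (limma) of 0.0904, 0.08 and 0.0784, and without repeat 4 the mean was -2.02 with an adjusted p of 0.00346.

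s100p was called at the edge, at -0.45 ± 0.21 with an adjusted p of 0.0405 (limma). Its ratio was -0.14 over the arrays with cornea in Cy5 and -0.76 over those with cornea in Cy3. Single arrays ran from -1.97 to 0.69, with 3 above 0 and 5 below. With the arrays fitted singly with a replicate block and a dye term, the adjusted p was 0.48 (limma). The call was lost when any 1 repeat was left out, with adjusted p-values (limma) between 0.0643 and 0.143.

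The 8 S100 genes not called lay between -0.36 and 0.59, with adjusted p-values (limma) between 0.0778 and 0.796. s100a10b, a copy of the gene for the annexin A2 partner, was the highest at 0.59 ± 0.54, with repeats of 1.101, -0.15, 0.58 and 0.83. s100w stood at 0.27 ± 0.25, s100u at 0.24 ± 0.10, s100b, a marker of glia in mammals, at 0.15 ± 0.46, s100t at -0.05 ± 0.12, s100a10a at -0.11 ± 0.49, s100s at -0.11 ± 0.52 and s100v2 at -0.36 ± 0.23 (SD, n = 4 each). s100a10b, s100w and icn follow each other in the RefSeq gene order with 0 protein-coding genes between neighbours. Their ratios of 0.59, 0.27 and -1.95 thus run from not called to called lower within 3 adjacent genes.

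The 4 calmodulin genes described here were all called, but in opposite directions. Vertebrates carry several calmodulin genes that encode the same or nearly the same protein, so the total calmodulin message is shared among them. calm3b had 2.71, 1.79, 2.99 and 3.17, a mean of 2.66 ± 0.61 (SD, n = 4) and a fold of 6.34. Every one of its repeats lay over 2-fold, with repeat 2 the lowest. calm3a was called higher at 0.86 ± 0.03, the smallest SD of all members. This is the SD of a mean over 2 probes, whose own SDs were larger, 0.21 and 0.15.

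The copies of calmodulin 2 lay on opposite sides of 0. calm2a had -1.46, -1.51, -1.55 and -1.63, a mean of -1.54 ± 0.07, 2.90-fold lower in cornea. calm2b had 0.48, 0.34, 0.36 and 0.36, a mean of 0.39 ± 0.07 with an adjusted p of 0.0398 (limma), and it lost its call when any 1 repeat was left out, with adjusted p-values (limma) between 0.0826 and 0.121. calm3b also stands on the study's cornea list, chosen partly on these arrays, so its direction here is not independent of that choice.

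Copies of the same gene were then set against each other, since teleosts kept many genes as an a and a b copy after a genome duplication. In 8 pairs with suffixes a and b, the difference of log2 ratios was taken within each repeat and tested by an exact two-sided sign-flip permutation test over the 4 repeats, which cannot give a p below 1 in 8, so no pair could pass 0.05 even before adjustment over the 8. calm2a minus calm2b was -1.92 ± 0.06, with the 4 differences between -1.99 and -1.85. It was the 1 pair of the 8 whose copies were called on opposite sides of 0. calm3a minus calm3b was -1.80 ± 0.63, with both copies called higher.

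Of the annexin pairs, anxa3a minus anxa3b was -2.05 ± 0.66 and anxa5a minus anxa5b -1.75 ± 1.01, in each case with the b copy called higher and the a copy not called. anxa2a minus anxa2b was 1.03 ± 0.55, with the a copy called higher. anxa1a minus anxa1b was 0.86 ± 0.28, with both called higher. s100a10a minus s100a10b was -0.70 ± 0.38, with neither called. These 7 pairs kept 1 sign in 4 of 4 repeats, and each reached the smallest p that the exact test allows. The sizes depended on the probe: with the probe of smallest SD for each gene, anxa3a minus anxa3b was -0.44 (exact permutation p = 0.375), anxa5a minus anxa5b -0.35 (p = 0.625) and s100a10a minus s100a10b -0.21 (p = 0.375), no longer with 1 sign in all repeats. With those probes anxa1a minus anxa1b was 3.00 and calm3a minus calm3b -1.10. With cornea in Cy3 only, anxa2a minus anxa2b was 0.60 (exact permutation p = 0.375). The small subunit pair was the other case: capns1a minus capns1b was -0.40 ± 0.68, with 2 repeats each way and an exact permutation p of 0.5, and -1.02 with the probe of smallest SD (p = 0.25).

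**Figure D3:**
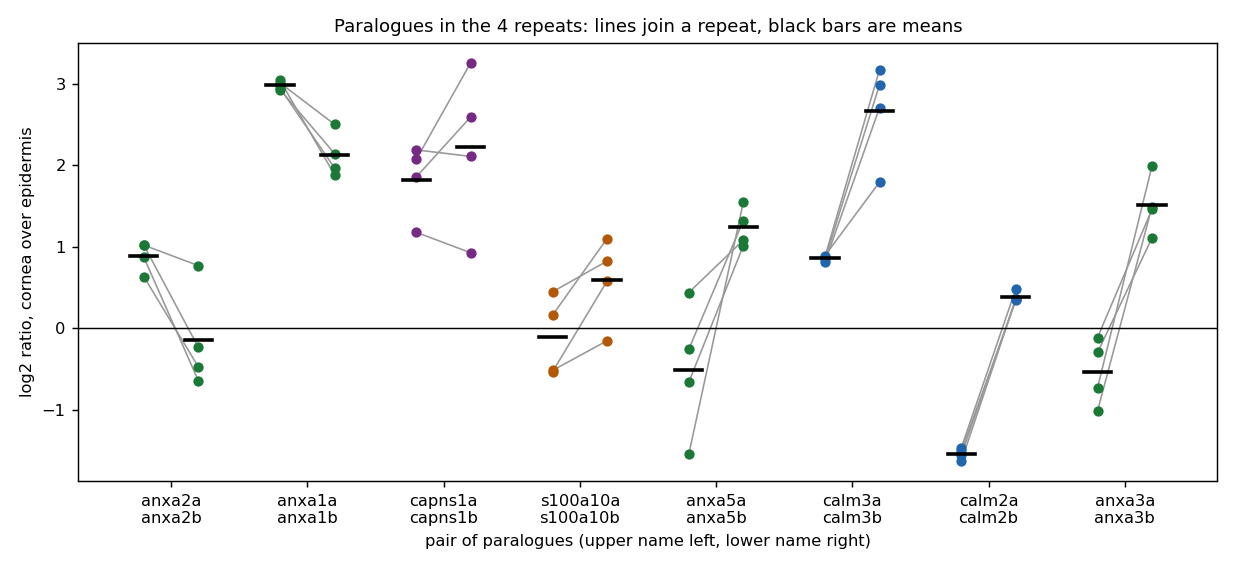
Log2 ratio of cornea over epidermis (y axis) for the 8 pairs of paralogues, with the upper name of a pair at left and the lower name at right. Points are the 4 repeats, lines join the 2 copies within a repeat and black bars are means. The lines of calm2a and calm2b cross 0 in all 4 repeats, while those of capns1a and capns1b slope both ways.

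A gene value is the mean over its probes, and 20 members had more than 1. Of the 64 probes of all members, 30 were called higher when tested over all 45220 features (limma), where 14.0% were, and 8 were called lower, where 10.4% were. Those shares include 24159 features without a gene symbol, so they are not the shares of named probes, which were not taken. In 10 of the 20 members all probes were called in 1 direction, and no member had probes called in both. The size of the ratio depended on the probe. anxa1b had probes at 4.21, 1.20 and 0.96, and anxa1a at 4.20 and 1.77, so the highest probes of the pair were close to each other while the lower ones were not.

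A spread over 1 between the highest and lowest probe was found in 10 members, and the median spread was 1.01. For anxa3b the probes stood at 3.04, 1.60 and -0.10. For anxa5b they stood at 2.63 and -0.15, and for capn3a at 0.11 and -1.66. In these 3 members, as in capn1, 1 probe was not called, and the gene's call rests on the others. anxa14 had one probe called lower at -1.12 and the other at 0.18, and s100a10b had one called higher at 1.08 and the other at 0.10. Among the calmodulins with more than 1 probe, calm3a had 0.96 and 0.76 and calm3b 3.47 and 1.86, while calm2a and calm2b rest on 1 probe each. Probe sequences were not used here, so whether a probe also binds a paralogue was not tested.

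**Figure D4:**
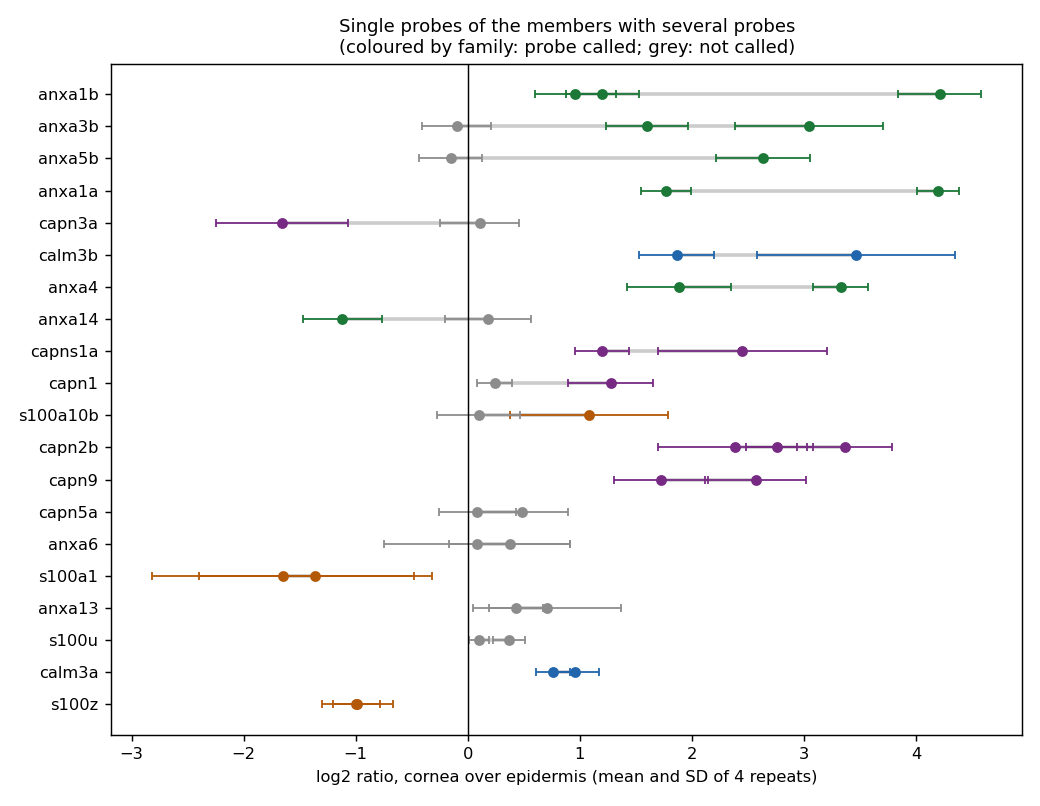
Mean log2 ratio of cornea over epidermis (x axis) of each probe, for the 20 members with several probes (rows, widest spread at the top). Bars are the SD of 4 repeats, colour marks a called probe and grey a probe not called. The probes of anxa1b span 0.96 to 4.21, and those of s100z differ by 0.01.

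Repeats and dyes were compared for the members. Of the 25 called members, 24 had 1 sign in all 4 repeats, s100a1 being the exception, and 21 had 1 sign on all 8 arrays. Repeat 2 was the lowest repeat for 17 of 41 members and repeat 1 for 15, against 4 for repeat 3 and 5 for repeat 4. The same counts over all genes were not taken, so this is not shown to be particular to the members. The means over the 4 arrays of each dye orientation had the same sign for every called member. In 5 members, none of them called, the sign changed between orientations. A call needs repeats that agree, so these sign counts are not independent of the call. The shares over all called genes were not taken. Averaged over the 4 repeats, the half-difference between the orientations had a median size of 0.09 and exceeded 0.5 in 0 members. Opposite differences cancel in that average. For s100p, a called member, the half-differences of the 4 repeats had an SD of 0.99. Of the 12 S100 genes, 11 had the higher ratio with cornea in Cy5, beside 22 of all 41 members, S100 genes included. The share over all genes was not taken. icn stood at -1.59 in that orientation and at -2.31 with cornea in Cy3. Since every repeat holds both orientations, such a dye difference cancels in the repeat's mean.

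**Figure D5:**
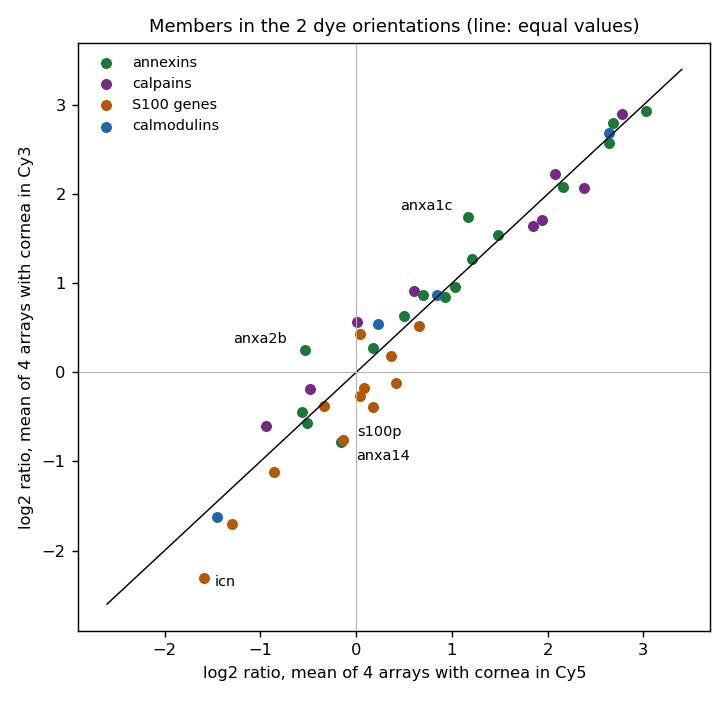
Each member's mean log2 ratio over the 4 arrays with cornea in Cy5 (x axis) and over the 4 arrays with cornea in Cy3 (y axis), coloured by family, with a line of equal values. icn lies below the line at -1.59 and -2.31, and anxa1c above it at 1.17 and 1.74.

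Genes that work with these proteins were read from 9 lists holding 58 measured genes. Of these, 16 were called higher in cornea, 27.6%, beside 22.9% of all genes. Another 5 were called lower, 8.62%, beside 13.8% of all genes. The median log2 ratio of the 58 genes was 0.13, beside 0.03 over all genes. Calpastatin (cast), the calpain inhibitor, was called higher at 2.32 ± 0.30 (SD, n = 4), in the same direction as the 6 calpains. Its list, cast and a set of penta-EF-hand genes, had 3 of 5 called higher, cast among them, and 1 lower. Of the penta-EF-hand genes, gca stood at 1.47 ± 0.43 and pdcd6, the gene for ALG-2, at -2.42 ± 0.37. Among 7 cytoskeletal calpain substrates 3 were called higher and 1 lower, led by talin (tln1) at 2.42 ± 0.22 and ezrb at 1.91 ± 0.15, while its paralogue ezra stood at -0.72 ± 0.07. Of 5 annexin and S100 partners 1 was called, ahnak at 1.47 ± 0.26, a large scaffold that binds the annexin A2 and S100A10 complex in mammals.

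On the calmodulin side, 2 of 6 calcineurin subunits were called higher, the catalytic subunit gene ppp3cca at 2.13 ± 0.30 and the regulatory subunit gene ppp3r1a at 2.06 ± 0.42. Their paralogues ppp3ccb at -0.39 ± 0.29 and ppp3r1b at 0.22 ± 0.31 were not called. Of 19 genes whose symbols begin with camk, most of them calmodulin-dependent kinases, 4 were called higher, 21.1%, and 1 lower, 5.26%. Over all genes the shares were 22.9% and 13.8%, so the camk shares did not exceed them. The same all-gene shares stand beside the other, shorter lists here. Among the camk genes, camk1db stood at 1.24 ± 0.27, camk2n2, a kinase inhibitor gene, at 1.01 ± 0.53 and camk4 at -0.67 ± 0.49. Myosin light chain kinases had 1 of 4 called higher, mylka at 0.76 ± 0.23. Of 6 calmodulin-binding membrane and scaffold genes, 2 were called lower, marcksb at -1.88 ± 0.20 and marcksl1b at -1.56 ± 0.50, and 1 higher, iqgap2 at 0.62 ± 0.18. Ferlins, other calcium-dependent membrane proteins, had 1 of 3 called higher (myof at 0.41 ± 0.12), and 0 of 3 copines were called by limma, 1 of them at an unadjusted p under 0.05, with means between -0.35 and 0.26.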

How the data were processed

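RNA of adult zebrafish cornea and epidermis was compared on 8 two-colour arrays, 4 biological repeats each with a dye swap. The deposited log2 ratios were made by the authors from scanned slides with limma (version not given in the sources used here), with background correction and normalization within and between arrays. The log base is taken as 2 and not stated. Medians per array lay between -0.02 and 0.01. The number of arrays limits the precision.

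Probe names came from the platform's annotation, after the features were rearranged on a grid of 532 by 85, turned and staggered in steps of 2. The layout was inferred from agreement between probes of the same gene, so that agreement is no independent evidence for it. On that grid such probes correlated at r = 0.36 over 5098 genes with 2 or more probes. In the numbering as given they correlated at 0.02. Of 45220 features, 21061 carried 1 symbol, 0 several and 24159 none. Probes of a gene were averaged. All 41 members were found in the RefSeq gene table by gene ID, with 0 symbols changed.

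Dye-swap arrays were averaged (n = 4), and limma 3.58.1 in R 4.3.3 tested the mean against 0, two-sided. The main fit over genes was tested on simulated data. The alternatives, the fit over probes and the sign-flip test were not. Members, lists, tests and alternatives were chosen with earlier results of these data known. Repeat values are printed for members called and over 2-fold, for those the study's text names and for paralogues called in opposite directions. Of other lists, the rule was to name at most 3 genes with the widest called changes. Any printed beyond that rule were chosen after their values were seen. They include both copies of ezr and of calcineurin subunits, the copines and other members' repeats. Also among them are camk4 and the markers cdh1, pvalb2 and all those of corneal stroma. Alternatives were other probe summaries, scaling, 1 repeat, slide or dye orientation at a time, a slide block, a replicate block with a dye term, a robust prior, a stricter threshold and the numbering as given. Icn2 was not analysed here, and some results are not reported here.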

Additional observations from a re-analysis of the deposited data

Results flagged for a closer look

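In 3 of 41 members 1 repeat stood apart from the other 3 by more than a gap test for 4 values allows, and chance alone flags about 1 group in 20. anxa13 had 1.22 in repeat 1, against 0.32 to 0.37 in the other repeats. s100z had -0.67 in repeat 1, against -1.14 to -1.08 in the others. calm2b had 0.48 in repeat 1, against 0.34 to 0.36 in the others. Repeat 1 was the repeat apart in each of these genes, above the others each time. The cause was not tested.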

How the results depend on the processing

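Of the 25 called members, 13 kept their call under all 14 alternatives of the fit, 11 higher and 2 lower (icn and calm2a), and 12 lost it or turned under at least 1. With the probe of smallest SD standing for each gene, 3 called members turned: anxa3b to -0.10, anxa5b to -0.15 and capn3a to 0.11, each without passing the test. Medians then were 0.61 for annexins, 1.20 for calpains and 0.57 for calmodulins. Slide 1 alone gave an annexin median of 0.80 and slide 2 alone 1.16. With cornea in Cy3 only, the median was -0.32 for S100 genes and 0.71 for calmodulins, and with cornea in Cy5 only 0.04 and 0.54. The S100 median lay between -0.26 and -0.04 with 1 repeat left out.

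Leaving out 1 repeat gave 17 to 18 members called higher and 3 to 5 lower (3 without repeat 3), and over all genes 2466 to 2975 higher and 1329 to 1879 lower (1329 without repeat 3, 1352 without repeat 4 and 1519 without repeat 2). Slide 1 alone called 3 members lower, and over all genes 1400 higher and 639 lower. Slide 2 alone called 2190 higher and 1224 lower over all genes. At an adjusted p under 0.001 with over 2-fold, 11 members were higher and 2 lower, and over all genes 960 and 315. The numbering as given, in which probes of the same gene correlated at 0.02, called 6 members higher and 1 lower. Counts over all genes are not given for that numbering, so these 2 counts say nothing about the members. With the arrays fitted singly with a replicate block and a dye term, 21 members were called higher and 7 lower, and over all genes 3473 and 2135. What lies behind these shifts was not tested. Gene identity, ratios without intensities and 4 repeats limit every value.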
